A study of Mus musculus with 13 samples.

Results

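The transcripts described here are 9 markers of T and B lymphocytes measured in the white adipose tissue (WAT) and brown adipose tissue (BAT) of mice: Cd2, Cd3e, Cd4, Cd8a and Ccr7 for T cells, and Cd22, Cd79a, Cd79b and Ms4a1 for B cells. They were found as the 12 array probes whose RefSeq accession belongs to one of these genes, out of 55681 non-control probes for 19752 named genes. Of the 9 genes, 8 were measured well enough to be tested. Cd8a did not pass the filter on dim probes. The rule lists the genes by name and sets no threshold on a measured value.

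The study used male C57BL/6J mice that carried mAP::Fv2E-PERK, a transgene for the kinase domain of PERK fused to a domain that the ligand AP20187 brings together in pairs. PERK is a kinase of the endoplasmic reticulum that can start the integrated stress response. Transgenic mice received AP20187 at 100 ng/g or its vehicle into the peritoneum, and tissue was taken after 12 h. Untreated wild-type mice gave WAT (3 arrays), as did transgenic mice given vehicle (2, numbered 1 and 2) and transgenic mice given AP20187 (3). BAT came from transgenic mice given vehicle (2, numbered 2 and 3) or AP20187 (2). Wild-type mice given AP20187 and BAT of wild-type mice were not analysed here. The labels do not spell out what the mAP promoter is or which cells it is active in, and their protocol speaks of muscles although each sample is labelled as fat. Separate animals are not stated for the replicates, and p-values therefore reflect only how much the arrays of a group vary. A 13th array, titled BAT but with WAT as its source, was put in no group.

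Lymphocytes are a minor cell population of fat, where they lie among adipocytes, vessels and macrophages and also in lymph nodes and lymphoid clusters embedded in the tissue. A T cell recognizes antigen through its receptor and the associated CD3 chains, with CD4 or CD8 as the co-receptor, while a B cell recognizes it through membrane immunoglobulin and the CD79A and CD79B chains. CCR7 guides naive T cells, B cells and mature dendritic cells into lymph nodes. In whole-tissue RNA, fewer cells of a type and less RNA per cell cannot be told apart.

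Upstream sequence was at hand for 4 of the 9 genes in a RefSeq promoter table of build GRCm38.p6: Cd3e, Cd8a, Cd22 and Cd79a. The 250 bases before the transcript start that the table gives were searched on both strands for 4 motifs of factors known from lymphocytes: that of early B cell factor, EBF (TCCC, any 2 bases, GGGA), ATGCAAAT (the octamer), AGGAAG (an ETS core with its flank) and CAGCTG (an E-box), none of which overlapped another in these genes. The Cd22 window held the EBF letters, which occurred in 0.779% of the 32851 promoters of the table. AGGAAG occurred in 29.5% of them, and was found in the windows of Cd79a and Cd3e. The octamer (1.601% of promoters) and CAGCTG (13.001%) were found in none of the 4 windows, and the Cd8a window matched no motif. The matched stretches are shown because they lie before the listed start of genes whose levels follow, with the motif in capitals. The first base of each capital stretch lies 49 bases before the start in Cd22, 224 and 17 bases in Cd3e and 55 bases in Cd79a, for which the entire 250 bases are given. That start need not be the outer end of the gene: the Cd22 window lies wholly within the gene span printed below, and the Cd3e window overlaps the end of its span. A match describes the letters and is no evidence of binding.
Cd22, chr7:30879058-30879087, minus strand: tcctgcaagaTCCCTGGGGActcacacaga
Cd3e, chr9:45009818-45009847, minus strand: gggttatgcataAGGAAGgctccctcagtg
Cd3e, chr9:45009612-45009641, minus strand: agtcccctctacaCTTCCTgtgtggggttc
Cd79a, chr7:24897247-24897496, plus strand: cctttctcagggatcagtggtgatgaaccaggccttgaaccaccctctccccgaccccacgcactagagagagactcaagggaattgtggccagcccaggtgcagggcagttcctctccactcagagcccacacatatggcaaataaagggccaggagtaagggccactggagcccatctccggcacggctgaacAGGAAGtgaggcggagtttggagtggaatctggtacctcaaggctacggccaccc

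Levels are given as log2 of the processed spot signal after subtraction of the array's 75th percentile on that scale, so that 0 is the signal of a fairly bright spot and each unit is a doubling. A level can be compared between arrays for one probe, and not between probes. Of the 59305 spots of an array, 46.4% to 64.0% were well above background and none was saturated. There were 3 slides. Slide 1 carried all wild-type arrays with WAT vehicle 1, and slide 2 carried all WAT AP20187 arrays with WAT vehicle 2 and the array of conflicting labels. Slide 3 held the BAT arrays and nothing else, so tissue and slide cannot be told apart. The tissue labels were checked on 7 brown adipocyte markers, whose mean level was 6.25 to 7.81 on BAT arrays, -0.75 to 1.62 on WAT arrays and 0.34 on the array with conflicting labels.

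Several arrays stood apart. WAT AP20187 1 had a mean level of 8.89 over the 2 tested epididymal transcripts (Adam7 and Rnase10, 2 of 9 listed), against 1.41 on WAT AP20187 2 and -3.54 to -1.0 elsewhere. It also had 0.40 over 10 endothelial markers, against 2.61 to 3.10 on the other arrays. BAT vehicle 3 had 0.82 over 10 pan-leukocyte genes, against -0.95 to -0.595 on the other BAT arrays, and over 6 skeletal muscle markers BAT vehicle 2 had 1.12, against 3.59 to 5.32 on the other BAT arrays. WAT vehicle 2 had 4.39 over 6 liver markers, against -1.15 to 1.90 on the other labelled WAT arrays, and WAT AP20187 2 had -0.51 over the muscle markers, against -3.78 to -2.49. Dim patches occurred on 3 arrays above all: spots whose surroundings held at least 10% of spots that were 2 log2 units or more below their tissue median made up 7.91%, 7.86% and 1.84% of WAT AP20187 1, 2 and 3, and at most 0.0691% of any other array.

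**Figure D1:**
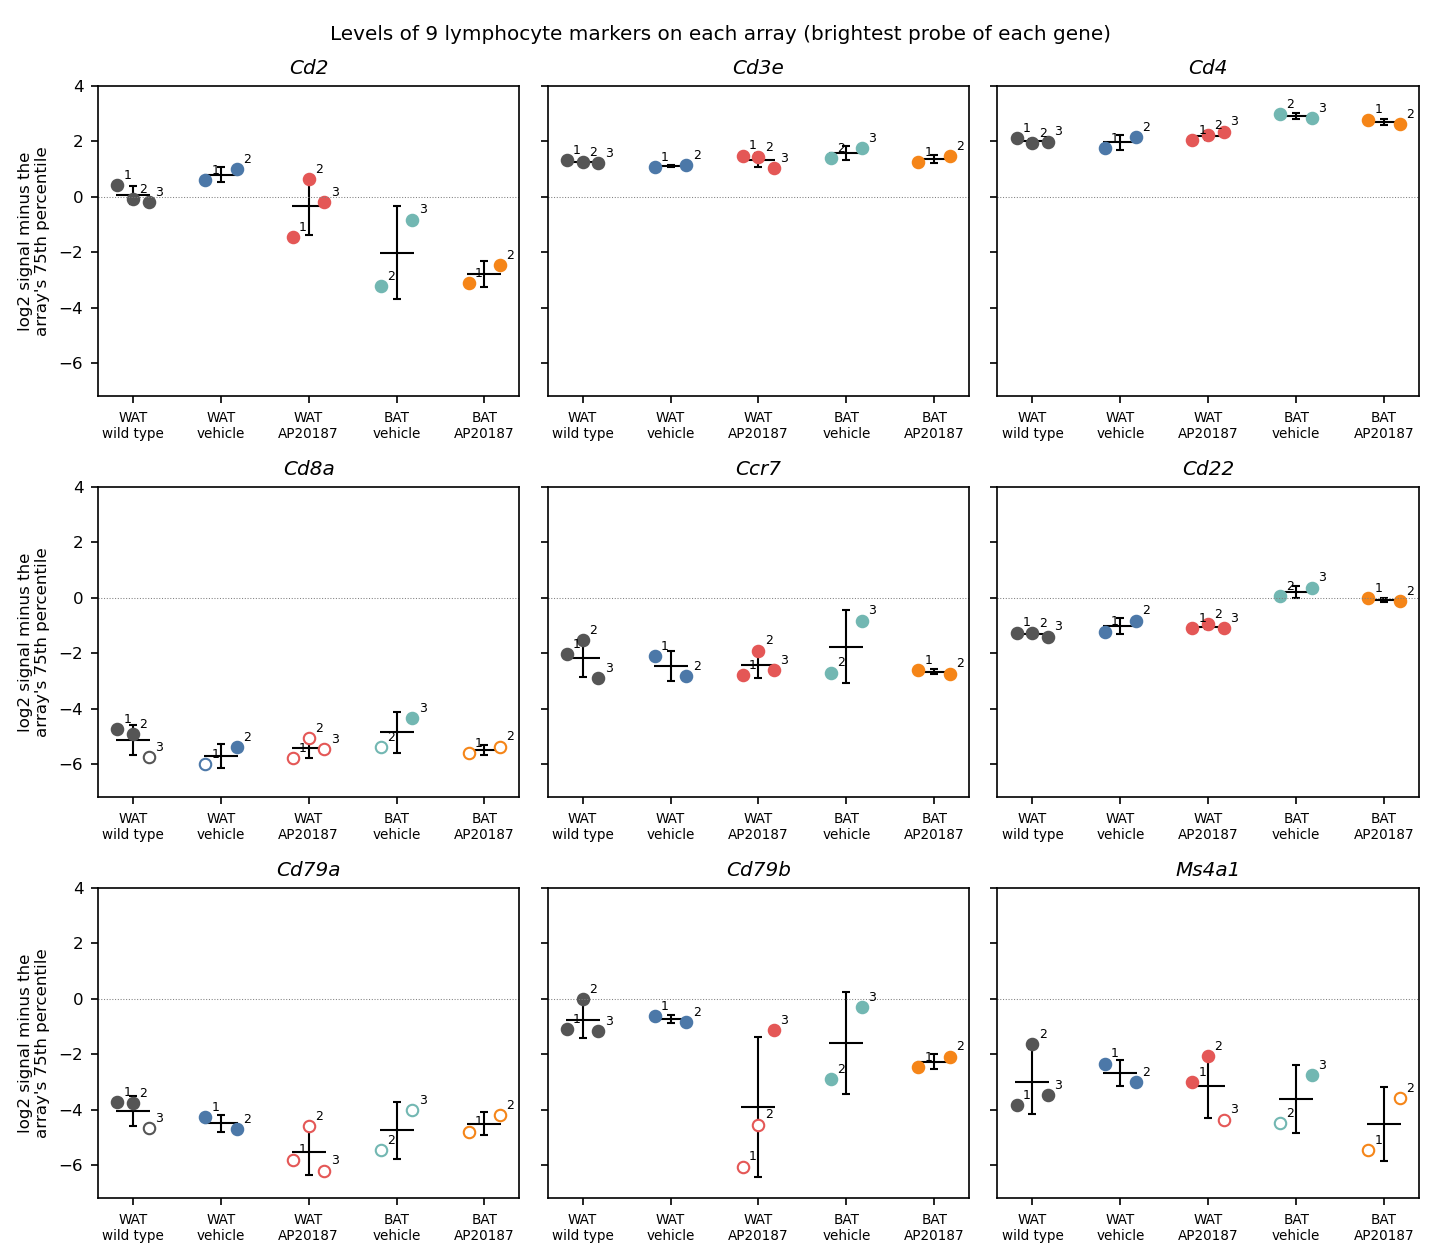
Level of each of the 9 markers (y axis, log2 signal relative to the array's 75th percentile) on each of the 12 arrays, in 1 panel per gene with the brightest probe of that gene. Points are arrays with their replicate number, filled where the spot was well above background and open where it was not, and the line and bars are the group mean and SD. Cd4 and Cd22 sit higher on the 4 BAT arrays than on the 8 WAT arrays, Cd2 sits lower on 3 of the 4 BAT arrays than on every WAT array, and Cd79b is not well above background on WAT AP20187 1 and 2.

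Cd2, an adhesion receptor of T cells and natural killer cells that binds CD48 in mice, has 2 probes. The gene lies at chromosome 3, 101275908 to 101287939 (GRCm38.p6, as for the positions below). With its brighter probe it stood at 0.42, -0.084 and -0.19 on the wild-type arrays, at 0.60 and 0.996 in WAT with vehicle, and at -1.45, 0.63 and -0.18 in WAT with AP20187. In BAT it stood at -3.21 (vehicle 2), -0.82 (vehicle 3), -3.11 (AP20187 1) and -2.45 (AP20187 2). WAT AP20187 1 was the lowest WAT array and BAT vehicle 3 the highest BAT array, and the tissues overlapped only through these 2 arrays. The second Cd2 probe, printed in 10 spots, tracked the first over the 12 arrays (Pearson r 0.991, with each array shared by both probes).

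Cd3e encodes the epsilon chain of the CD3 complex, which carries the signal of the T cell receptor (chromosome 9, 44998735 to 45009663). Its levels were 1.33, 1.26 and 1.21 on the wild-type arrays, 1.07 and 1.14 in WAT with vehicle, and 1.49, 1.44 and 1.05 in WAT with AP20187. In BAT they were 1.41 and 1.76 with vehicle and 1.27 and 1.46 with AP20187. The groups lay close together, and the whole range over 12 arrays was 0.71. BAT vehicle 3 was again the highest.

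Cd4 encodes the co-receptor of helper T cells, which binds class II molecules on antigen-presenting cells (chromosome 6, 124864693 to 124888247). Its brighter probe stood at 2.11, 1.94 and 1.99 on the wild-type arrays, 1.77 and 2.16 in WAT with vehicle, and 2.03, 2.22 and 2.35 in WAT with AP20187. In BAT it stood at 2.99 and 2.85 with vehicle and at 2.79 and 2.64 with AP20187. Every BAT array was above every WAT array. The other Cd4 probe, in 10 spots, was dim: it was well above background on 7 of 12 arrays, lay between -5.09 and -4.34, and ran the opposite way (r -0.434 with the brighter probe over 12 arrays that the probes share). The Cd4 results below rest on the brighter probe.

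Cd8a encodes the alpha chain of the co-receptor of cytotoxic T cells (chromosome 6, 71373427 to 71379171). Its probes were well above background on 2 and 4 of the 12 arrays, with levels from -6.65 to -3.71 and from -6.01 to -4.33. No group had it above background on every array with either probe, so Cd8a was not tested. Ccr7 (chromosome 11, 99144199 to 99155077) was above background on all 12 arrays. Its level ran from -2.89 to -1.53 in WAT, and in BAT it was -2.70 and -0.82 with vehicle and -2.61 and -2.74 with AP20187. BAT vehicle 3 stood above the other 11 arrays for Ccr7.

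Cd22, an inhibitory lectin of the B cell surface that dampens antigen receptor signals, lies at chromosome 7, 30865404 to 30880342. It stood at -1.26, -1.27 and -1.40 on the wild-type arrays, -1.22 and -0.83 in WAT with vehicle, and -1.10, -0.95 and -1.10 in WAT with AP20187. In BAT it stood at 0.055 and 0.37 with vehicle and at -0.020 and -0.11 with AP20187. The lowest BAT array (-0.11) lay above the highest WAT array (-0.83), so the tissues did not overlap for Cd22.

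Cd79a encodes the alpha chain of the B cell receptor's signalling pair (chromosome 7, 24897497 to 24901858), the gene whose upstream bases are printed above. It was above background on 4 arrays only, at -3.72 and -3.76 in wild type 1 and 2 and at -4.27 and -4.70 in WAT vehicle 1 and 2. Wild type 3 read -4.66, and the WAT AP20187 arrays read -5.80, -4.61 and -6.20. The BAT arrays read -5.47 and -4.03 with vehicle and -4.80 and -4.21 with AP20187. No array with AP20187 and no BAT array showed Cd79a above background, so its level there is only bounded from above.

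Cd79b encodes the partner chain (chromosome 11, 106311341 to 106314562). Its level was -1.10, 0.00072 and -1.17 on the wild-type arrays. With vehicle, WAT had -0.63 and -0.84. With AP20187 it read -6.05 and -4.54 on WAT arrays 1 and 2, where the spot was not well above background, and -1.12 on array 3. In BAT it stood at -2.89 and -0.30 with vehicle and at -2.47 and -2.09 with AP20187. WAT AP20187 3 lay within the wild-type range, while the other AP20187 arrays of WAT lay below every other array.

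Ms4a1 encodes CD20, a surface protein of B cells from the pre-B stage until they become plasma cells (chromosome 19, 11249679 to 11266149). It was above background on 8 of 12 arrays, including all wild-type arrays (-3.83, -1.64 and -3.49) and both WAT vehicle arrays (-2.34 and -3.02). In WAT with AP20187 it read -3.01, -2.06 and -4.36, and in BAT -4.48 and -2.75 with vehicle and -5.46 and -3.57 with AP20187. The spread within groups was as wide as that between them: wild-type WAT alone had an SD of 1.18 (n = 3).

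The order of the group means differed between members. Cd2 and Ms4a1 ran from WAT vehicle through WAT wild type, WAT AP20187 and BAT vehicle down to BAT AP20187. Cd3e and Cd4 had BAT vehicle first, then BAT AP20187, WAT AP20187, WAT wild type and WAT vehicle. Neighbours in these orders mostly did not differ beyond their spread: none of the differences between the 3 WAT groups, and none between the 2 BAT groups, passed the test for any of the 8 tested members. Over the 12 arrays Cd4 and Cd22 varied together (r 0.934), with r 0.526 over the 8 WAT arrays alone. These correlations describe probes that share arrays, slides and scaling. The receptor partners Cd79a and Cd79b had r 0.518 over the 12 arrays, of which Cd79a was above background on 4 and Cd79b on 10. On WAT AP20187 1 neither was, and both spots lay in dim surroundings, so this r rests partly on readings near background.

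The comparison of AP20187 with vehicle in the WAT of transgenic mice asks whether activation of Fv2E-PERK went with a change of lymphocyte transcripts. None of the 8 tested markers passed limma's test (adjusted p under 0.05, Benjamini-Hochberg over 24473 features), where 2.23% of all features did (1.74% higher and 0.49% lower), and 1 of the 8 had an unadjusted p under 0.05 against 22.3% of all features. The T cell members Cd3e and Cd4 differed by 0.22 (SE 0.19) and 0.24 (SE 0.18) on the log2 scale, with 95% intervals from -0.21 to 0.64 and from -0.16 to 0.64. Both differences turned negative, to -0.083 and -0.061, when arrays were scaled on probes detected everywhere. Cd2 differed by -1.14 (SE 0.73, adjusted p = 0.391) and by -0.58 without WAT AP20187 1. Ccr7 differed by 0.027 (SE 0.58), which also changed sign with the scaling and between single arrays left out. Over the 8 members the median difference was -0.25 and 3 were positive, beside a median of 0.15 over all features.

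Among the B cell members, Cd22 differed by -0.029 (SE 0.18, 95% interval -0.43 to 0.37) and Ms4a1 by -0.47 (SE 0.93). Cd79a was at least 1.18-fold lower with AP20187 than with vehicle, the bound for a probe that no AP20187 array had above background ("at least" replaces a dim probe's value, where lower, by the dimmest signal on that array that was well above background, and then compares group means). Its measured difference was -1.05 (SE 0.57, adjusted p = 0.307), from group means of -4.48 and -5.54. Cd79a passed the filter on dim probes only through WAT vehicle, the higher group here, so its direction is no support for a change. With normexp and quantile scaling the difference was -0.040, and without WAT AP20187 1 and 2 it was -1.71. Ms4a1 differed by -1.68 without these arrays and by 0.14 without WAT AP20187 3.

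Cd79b had the widest gap of the set in WAT. Its mean was -3.91 (SD 2.53, n = 3) with AP20187 and -0.73 (SD 0.15, n = 2) with vehicle, a difference of -3.17 (SE 1.27, 95% interval -6.07 to -0.28), with limma's p of 0.0349 and an adjusted p of 0.193. The AP20187 arrays all lay below the vehicle arrays, as they did for 12.4% of the features that could be compared (25% lay entirely above). Leaving out WAT AP20187 3 gave -4.57 and an adjusted p of 0.0448, and leaving out WAT AP20187 1 gave -2.10. Since only 1 of the 3 AP20187 arrays had the spot above background, the size is not a measured fold, and with normexp and quantile scaling it was -1.18. On slide 2, which holds vehicle 2 and the 3 AP20187 arrays, the difference was -3.07.

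The Cd79b value comes from 1 spot, at row 45 and column 163 of a grid of 384 rows and 164 columns, and so close to an edge. Of the 42 spots within 5 rows and 2 columns of it, 31.0% were dim by the measure above on WAT AP20187 2, 14.3% on WAT AP20187 1 and 4.76% on WAT AP20187 3, and none on any other array. Without the spots in dim surroundings, Cd79b rested on WAT AP20187 3 alone and differed by -0.39 (adjusted p = 0.830, with that array assumed to vary like the other groups). Dim surroundings also held the spots of Cd79a and of the single-spot Cd8a probe on WAT AP20187 1 (15.7% and 17.0% of neighbours) and that of Cd3e on WAT AP20187 2 (32.0%), where Cd3e nonetheless read 1.44.

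**Figure D2:**
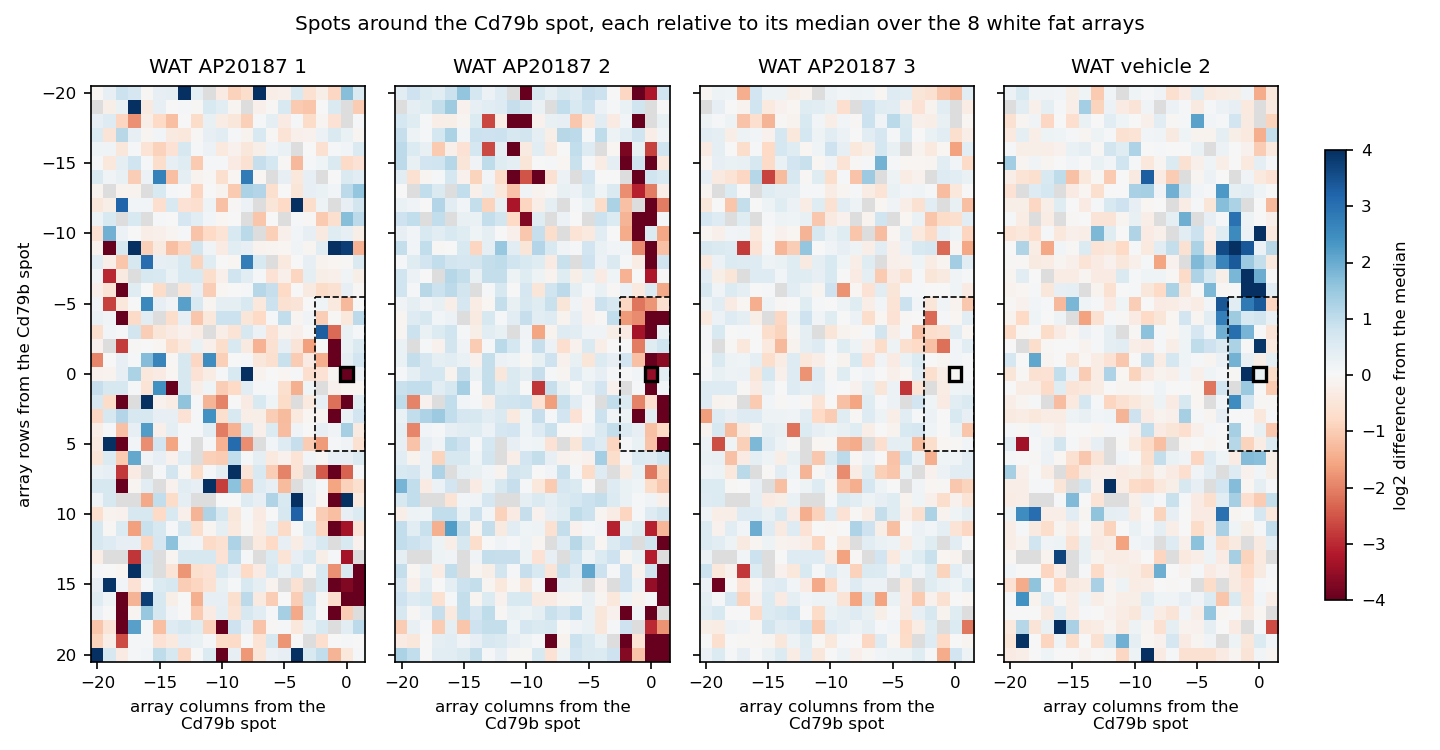
Spots around the Cd79b spot on 4 arrays of slide 2. Each square is a spot, placed by its distance in array rows and columns from the Cd79b spot (boxed), and its colour is the log2 difference from the spot's median over the 8 WAT arrays, with grey for missing. The dashed frame holds the 42 neighbours that were counted. On WAT AP20187 1 and 2 dim spots (red) run along the edge columns where Cd79b lies, WAT AP20187 3 shows few of them, and WAT vehicle 2 has bright spots (blue) there while its Cd79b spot is close to the median.

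In BAT, AP20187 against vehicle gave 0 of 8 members past limma's threshold and 0 with an unadjusted p under 0.05, beside 0.00817% and 7.36% of all features. Of the 8 differences 7 were negative, with a median of -0.48 (-0.042 over all features). They ranged from -0.91 (SE 0.64) for Ccr7 and -0.90 (SE 1.02) for Ms4a1 to -0.21 (SE 0.19) for Cd4 and 0.25 (SE 0.62) for Cd79a, which was above background on no BAT array. Ms4a1 was above background on 1 vehicle array and on no AP20187 array, so the size is not a measured fold and no bound is given. Its difference rests on BAT vehicle 3 (-0.034 without it), and was 0.043 without BAT AP20187 1 and 0.042 in the authors' table. For Cd4 and Cd22 (-0.28, SE 0.19) both AP20187 arrays lay below both vehicle arrays, as for 21.5% of the features that could be compared. The negative median rests on BAT vehicle 3, the array with the high pan-leukocyte level: without it the median was -0.0052 and 4 of 8 differences were positive.

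WAT of vehicle-treated transgenic mice was set against WAT of untreated wild-type mice, a contrast that joins transgene and injection. Again 0 of 8 members passed and 0 had an unadjusted p under 0.05, beside 0.0245% and 5.03% of all features by limma's test. The median was -0.010, with 4 of 8 positive. Cd2 (0.75, SE 0.73) and Cd22 (0.29, SE 0.18) were higher on both vehicle arrays than on each wild-type array, which held for 19.4% of features, and Cd3e (-0.16, SE 0.19) was lower on both, which held for 15.3%. On slide 1, where vehicle 1 lies beside the wild-type arrays, these differences were 0.55, 0.089 and -0.19.

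WAT with AP20187 against wild-type WAT likewise gave 0 of 8 past limma's threshold, where 8.86% of all features passed (7.2% higher and 1.66% lower), and 2 of 8 with an unadjusted p under 0.05, where 28.6% had one. Those were Cd79a (-1.49, SE 0.51, limma's adjusted p = 0.0962) and Cd79b (-3.15, SE 1.14, adjusted p = 0.112). For Cd79a wild type 3 was not above background either, so the size is not a measured fold and no bound is given. Its AP20187 and wild-type arrays overlapped, and with normexp and quantile scaling the difference was -0.12. Cd79b passed without WAT AP20187 3 (-4.54, adjusted p = 0.0321) and differed by -0.37 without spots in dim surroundings. Cd22 was higher on each AP20187 array than on each wild-type array (0.26, SE 0.16), which 25.9% of features were. These groups lie on different slides. With slide as a random block 4 members passed (Cd4, Cd22, Cd79a and Cd79b), but so did 9069 features upward and 4412 downward, at an estimated block correlation of -0.247.

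**Figure D3:**
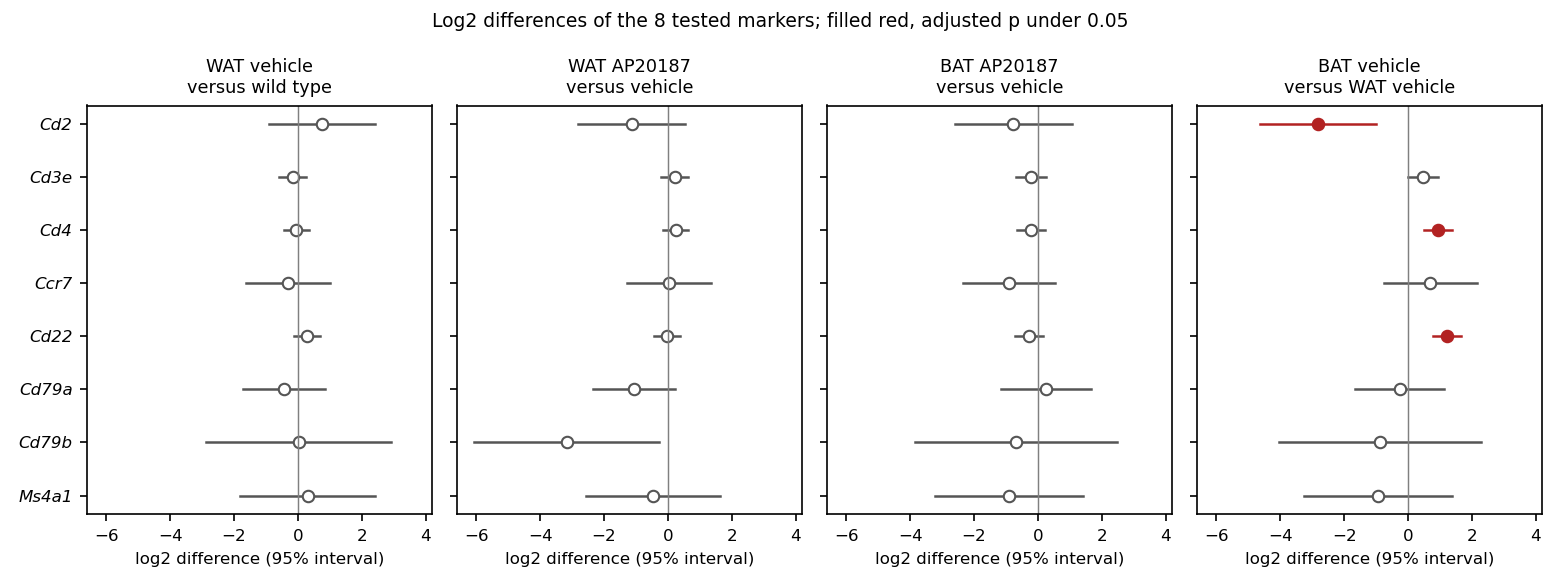
Log2 differences of the 8 tested markers (points) with 95% intervals (lines) in 4 comparisons, from 1 limma model over 12 arrays. Filled red points have an adjusted p under 0.05. Only the panel of BAT against WAT holds any: Cd2 is lower and Cd4 and Cd22 are higher in BAT, and the lines of Cd79b, Cd2 and Ms4a1 are several times as long as those of Cd3e, Cd4 and Cd22.

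Between the tissues, with vehicle in both, 3 of 8 members passed: Cd2 was lower in BAT, and Cd4 and Cd22 were higher. By limma's test 23.4% of all features passed, 14.3% higher and 9.16% lower in BAT, and 4 of 8 members had an unadjusted p under 0.05 beside 36.5% of features, so 3 of 8 is read against a broad difference between the tissues (and slides). Cd22 was 2.35-fold higher in BAT (1.23, SE 0.19, adjusted p = 0.00268), from -1.02 (SD 0.28) in WAT to 0.21 (SD 0.22) in BAT, n = 2 each. Cd4 was 1.94-fold higher (0.95, SE 0.19, adjusted p = 0.00865), from 1.96 (SD 0.27) to 2.92 (SD 0.097). Cd2 was 7.05-fold lower (-2.82, SE 0.80, 95% interval -4.64 to -0.99, adjusted p = 0.0351), from 0.80 (SD 0.28) to -2.02 (SD 1.69). The second Cd2 probe gave -2.65 (SE 0.62, adjusted p = 0.0177). The dim Cd4 probe differed by -0.037 (SE 0.21), with neither BAT vehicle array above background.

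Directions held under each scaling: Cd22 differed by 0.86 to 1.25, Cd4 by 0.71 to 0.96 and Cd2 by -3.05 to -1.96 with quantile scaling, with or without normexp, with the percentile over detected probes and in the authors' value table. The higher levels of Cd4 and Cd22 are relative to the rest of each array. Before scaling, the processed signal of Cd4 was 808 and 974 in BAT with vehicle and 1264 and 1794 in WAT with vehicle, and that of Cd22 was 106 and 175 against 159 and 227. Cd22 passed with any 1 array left out. Cd4 lost the call without WAT vehicle 1 (adjusted p = 0.0626) or BAT vehicle 2 (0.0539), and also when its probes were averaged (0.46, adjusted p = 0.130). Cd2 lost it without WAT vehicle 1 (0.105), WAT vehicle 2 (0.142), BAT vehicle 2 (-1.62, adjusted p = 0.208) or any one of wild type 1, 2 and 3 (0.0534, 0.0554 and 0.0534), and with the replicate number as a block (-3.25, adjusted p = 0.0547). Whether same-numbered arrays share an animal is not stated and could not be checked. Where only the arrays compared were fitted, Cd22 alone passed. With the array of conflicting labels counted as BAT vehicle none of the 3 passed limma's test, nor did any other feature (Cd22 0.80, Cd4 0.68 and Cd2 -1.88, adjusted p = 0.383 to 0.387). Counted as WAT vehicle, all 3 passed. Over the brown adipocyte markers that array had 0.34, within the WAT range of -0.75 to 1.62 and below the BAT range of 6.25 to 7.81.

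The other members did not pass between the tissues. Cd3e was 1.39-fold higher in BAT (0.48, SE 0.21, limma's adjusted p = 0.129). Both BAT vehicle arrays lay above both WAT vehicle arrays for Cd3e, Cd4 and Cd22, as for 39% of features, and below them for Cd2, as for 29.9%. Ccr7 differed by 0.70 (SE 0.64), Ms4a1 by -0.94 (SE 1.02), Cd79b by -0.87 (SE 1.40) and Cd79a by -0.26 (SE 0.62). Leaving out BAT vehicle 3 turned Ccr7 to -0.23, and leaving out BAT vehicle 2 turned Cd79a to 0.45 and Cd79b to 0.43. The wide intervals, such as -4.03 to 2.30 for Cd79b, leave large differences in either direction undetected.

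The response to AP20187 was also compared between the tissues (BAT minus WAT). None of the 24473 features passed limma's test, 0 of 8 members among them, and 16.5% of features and 0 members had an unadjusted p under 0.05. Estimates ran from -0.94 (SE 0.86) for Ccr7 to 2.49 (SE 1.89) for Cd79b.

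The other genes of the lineages were then taken from lists. Of 24 genes of T cell receptor signalling and T cell identity, 20 could be tested (Bcl11b, Trat1, Ubash3a and Themis could not). None of the 20 differences between the tissues was positive, with a median of -0.94 beside 0.11 over all features. Where 9.16% of all features were lower in BAT and 14.3% higher, 0 of the 20 were higher and 3 were lower. Among them Icos, a co-stimulatory receptor, was at least 2.01-fold lower in BAT (measured -1.62, SE 0.35, adjusted p = 0.0111), and Thy1, a surface glycoprotein of T cells and also of stromal cells, was 2.54-fold lower (-1.34, SE 0.34, adjusted p = 0.0268). Without BAT vehicle 3 the median was -1.67, and without BAT vehicle 2 it was -0.57 with 8 differences positive. More genes of the list passed in the first case and fewer in the second, while fewer of all features passed in both. Over 12 arrays r with the mean of the list was -0.869 for Cd4, -0.223 for Cd3e and 0.758 for Cd2. Over the 8 WAT arrays alone it was -0.448, 0.493 and -0.739, with the highest list mean of the WAT arrays on WAT AP20187 1 (-1.59).

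Of 22 genes of B cell receptor signalling and B cell identity, 18 could be tested (Blk, Pax5, Cxcr5 and Cd180 could not). The median difference between the tissues was -1.13. In BAT 2 were lower and 1 was higher, beside 9.16% and 14.3% of all features. Siglecg, an inhibitory lectin related to Cd22, was at least 3.43-fold lower in BAT (-2.26, SE 0.35, limma's adjusted p = 0.00268). Bank1, a scaffold of B cell signalling, was also lower (-2.28, SE 0.67, limma's adjusted p = 0.0390). It was above background on 1 of the 2 BAT vehicle arrays, so the size is not a measured fold. Vpreb3, known from the assembly of the pre-B cell receptor, was 3.82-fold higher (1.93, SE 0.42, adjusted p = 0.0121). More genes of the list were lower without BAT vehicle 3. Without BAT vehicle 2 fewer were, as over all features, and the median was -0.30. Over 12 arrays, which include the difference between the tissues, r with this list was -0.724 for Cd22 and 0.763 for Ms4a1. Over the 8 WAT arrays alone it was -0.0209 and 0.761. Cd4 and Cd22 had r 0.929 and 0.953 with the mean of the brown adipocyte markers over 12 arrays. Over the 8 WAT arrays these were 0.643 and 0.768. The part of brown adipocytes in the levels of Cd4 and Cd22 was not tested.

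Lists of other blood cells are read against the 9.16% of all features that were lower in BAT. That share fell when either BAT vehicle array was left out, most without BAT vehicle 2. A fall of the list counts, here and below, is therefore not by itself particular to a list. Of 14 macrophage markers 9 were lower and 0 higher (median -2.08; 9 lower without BAT vehicle 3 and 4 without BAT vehicle 2), among them Cd163 (at least 7.44-fold), Clec10a (8.04-fold), Lyz2 (6.91-fold) and Mertk (6.02-fold). The mean of that list was 0.00 to 0.94 on BAT arrays, 0.83 on WAT AP20187 1 and 1.55 to 2.48 on the other WAT arrays. Cd2 had r 0.939 with it over 12 arrays and 0.921 over the 8 WAT arrays, where r between Cd2 and the T cell list was -0.739. Both WAT values include WAT AP20187 1. Of the WAT arrays it had the lowest Cd2 level (-1.45), the lowest macrophage mean and the highest T cell list mean (-1.59, against -2.65 to -2.03). These correlations were not computed without it. Of 10 pan-leukocyte genes 1 was lower, Laptm5 (3.36-fold, adjusted p = 0.0431). Without BAT vehicle 3 there were 6 lower, and without BAT vehicle 2 there were 0. The part of macrophages in the Cd2 difference was not tested.

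Genes of lymph nodes and of lymphocyte entry gave 3 lower and 0 higher of 9 tested (Glycam1 could not be), also without BAT vehicle 3 or BAT vehicle 2. Chst4, the sulfotransferase of high endothelial venules, was at least 37.3-fold lower in BAT (adjusted p = 0.000648). Ccl21a and Ccl19, the ligands of CCR7, were 5.88-fold and 3.37-fold lower (adjusted p = 0.000871 and 0.00195), whereas Ccr7 itself did not pass. The mean of this list was -2.18 to -1.52 on BAT arrays and -1.47 on WAT AP20187 1, and -0.53 to 0.07 on the other WAT arrays. Of 6 tested genes of regulatory T cells 3 were lower (Il1rl1 5.85-fold, Klrg1 at least 2.92-fold, and Tnfrsf18 with a difference of -1.52). Tnfrsf18 was above background on only 1 of the 2 BAT vehicle arrays, so its size is not a measured fold. Foxp3, Ctla4 and Areg could not be tested. Of 8 plasma cell genes 1 was lower (Tnfrsf17, at least 3.77-fold), of 7 dendritic cell markers 3 were (Cd209a 6.89-fold, Batf3 4.94-fold, Clec9a at least 3.06-fold), of 9 granulocyte and mast cell markers 1 was (Tpsb2, 2.48-fold), and of 11 natural killer and cytotoxic genes 0 passed. Without BAT vehicle 3 the lower counts were 3 for regulatory T cells, 1 for plasma cells, 5 for dendritic cells and 2 for natural killer cells, and without BAT vehicle 2 they were 1, 1, 1 and 0.

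**Figure D4:**
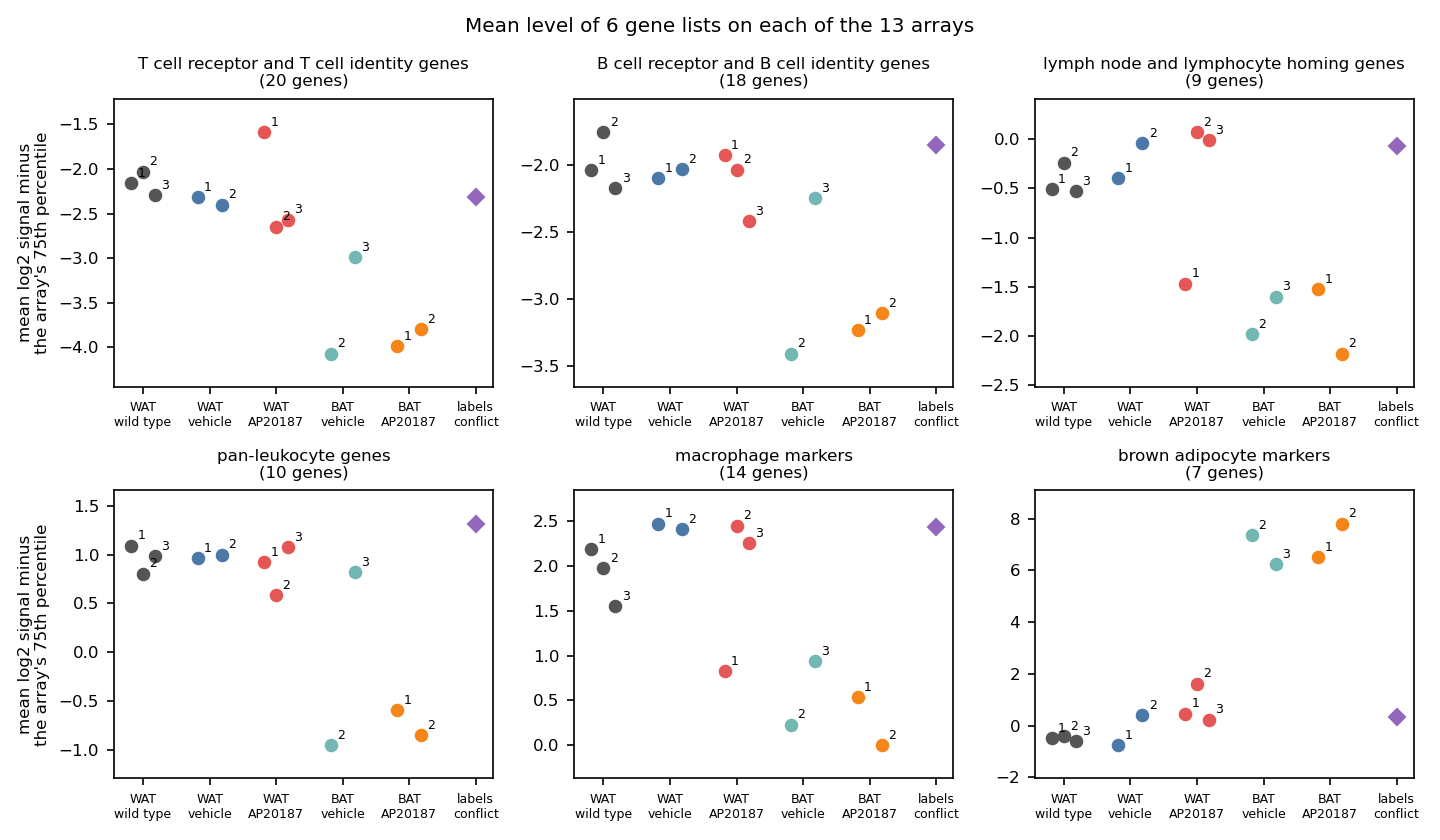
Mean level of 6 gene lists (y axes, log2 signal relative to the array's 75th percentile, each panel with its own scale) on each of the 13 arrays, by group. Points are arrays with their replicate number, and the diamond is the array whose labels conflict. The T cell list lies from -4.07 to -2.99 in BAT and from -2.65 to -1.59 in WAT, BAT vehicle 3 is the highest BAT array in the T cell, B cell, pan-leukocyte and macrophage panels, and WAT AP20187 1 is low in the lymph node and macrophage panels.

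With AP20187 against vehicle in WAT, 0 of 20 T cell genes and 0 of 18 B cell genes passed limma's test, with medians of 0.28 and -0.20 beside 0.15 over all features. Of the AP20187 arrays only WAT AP20187 1, with its high epididymal level, had a T cell list mean (-1.59) above those of the vehicle arrays (-2.32 and -2.40). WAT AP20187 2 and 3 lay below both (-2.65 and -2.57). The smallest p-values were those of Cd247, the zeta chain of the T cell receptor complex, at least 2.07-fold lower with AP20187 (adjusted p = 0.163), of Vpreb3 (1.40, SE 0.39, adjusted p = 0.0874) and of H2-Ob (-1.67, SE 0.61, adjusted p = 0.164). H2-Ob was above background on only 1 of the 3 AP20187 arrays. In BAT 0 of 20 and 0 of 18 passed, with medians of -0.45 and -0.46, which became 0.22 and 0.22 without BAT vehicle 3. Against wild-type WAT, 1 gene of each list was lower in WAT with AP20187: Icos 2.21-fold (-1.15, SE 0.28, adjusted p = 0.0426) and Fcer2a, the low-affinity IgE receptor, at least 2.79-fold (-1.48, SE 0.39, adjusted p = 0.0498), beside 1.66% of all features lower. No feature passed in that comparison with slide as a fixed block, with the replicate block, with only the arrays compared, with the conflicting array as BAT vehicle, or without any one of wild type 1, 2 and 3, so both calls were lost there.

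Genes whose pattern over the 12 arrays was most like that of the members were sought among 13688 named genes by Pearson's r. To the mean of Cd2, Cd3e and Cd4 the nearest were Adgre4 (r 0.958), Lmo2 (0.957), Adam19 (0.954), Fes (0.952), Ptprb (0.951) and Naip2 (0.947). To the mean of the 4 B cell members they were Strip2 (0.944), Afap1l1 (0.933), Meox2 (0.914), Rcsd1 (0.903), Rhox7a (0.90) and Cxcl9 (0.899). None of these 12 was on the T or B cell lists. The means are moved most by the members with the widest spread, Cd2 among the T cell genes (range 4.21) and Cd79b among the B cell genes (range 6.05), and the points share arrays, slides and scaling. The lowest Cd79b readings, -6.05 and -4.54 on WAT AP20187 1 and 2, were not well above background and lay in dim surroundings. Cd79a, also part of the B cell mean, was above background on only 4 of the 12 arrays.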

How the data were processed

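RNA (150 ng input) was read on Agilent arrays of 1 colour. The deposited intensity is, per the file headers, the processed signal, corrected for background and spatially detrended within each array. The submitters' processing notes name Feature Extraction 10.7.1.1. The authors' value table is intensity too: it equalled the processed signal within 0.1% for 99.0% to 99.2% of values, showed no scaling or centring, and had column medians from 32.8 to 105.

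Outlier spots were dropped (1313 missing values), repeated spots averaged, and the 75th percentile of each array subtracted after log2. RefSeq accessions (GRCm38.p6) named 26056 of 55681 probes and left 29625 unnamed. A probe stayed if 1 of the 5 groups had it well above background throughout (32630 probes), and the brightest stood for its gene (24473 features, 15100 named). limma 3.58.1 in R 4.3.3 fitted 12 arrays together (lmFit, eBayes, Benjamini-Hochberg, 0.05), after a test on simulated data. The 1 array with conflicting labels entered no group. BAT files carry a later revision of the array design, with the same accessions for the members.

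The members and lists were chosen with earlier results of these data known. Named genes were drawn from the members, up to 4 genes of a list past the threshold or 3 with the smallest p, and the 6 nearest genes by correlation. Not every gene that this rule allows is reported here. The alternatives are those of the closing section. Added after seeing the data were leaving out spots in dim surroundings, every probe as a feature, and list counts without single arrays. The number of arrays limits the precision.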

Additional observations from a re-analysis of the deposited data

Results flagged for a closer look

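No comparison used the array whose labels conflict (title and tissue BAT, source WAT). Its 10-spot Cd2 probe read -1.761, just above the highest control array, WAT vehicle 2 at -1.7635, a gap smaller than the SD of 0.091 between the WAT vehicle arrays. The brighter Cd2 probe read 0.79 on it, between the WAT vehicle arrays. Its brown adipocyte markers (mean 0.34) lay within the WAT range and below the BAT range. No tissue was assigned from the Cd2 values.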

How the results depend on the processing

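The number of arrays, and for Cd79a, Ms4a1 and Cd8a the signal over background, limited the precision. The cause of the changes below was not tested, unless fewer arrays or features make it plain. Slide as a fixed block was not fitted for BAT against WAT, since slide 3 holds all BAT arrays, and a stricter filter on dim probes left out Cd79a, Cd79b and Ms4a1.

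Of the 8 members, 3 passed between BAT and WAT with vehicle. With only the arrays compared 1 passed, with the conflicting array in BAT vehicle 0 did, and leaving out single arrays gave 1 to 3. For WAT AP20187 against wild type, 0 passed, 4 passed with slide as a random block, and leaving out single arrays gave 0 to 1. For WAT AP20187 against vehicle the single arrays left out gave 0 to 1 (1 without WAT AP20187 3). The counts for the other comparisons stayed at 0. Whether the replicate numbers pair the arrays could not be settled. The deviations of same-numbered WAT arrays correlated at -0.225 to 0.103 between AP20187 and wild type, which are different mice. In the vehicle and BAT groups, with 2 arrays each, the deviations mirror each other, so they cannot show whether both tissues came from the same animal. With the replicate block BAT against WAT gave 2425 features higher and 1479 lower, in place of 3491 and 2242, and Cd79b in BAT with AP20187 against vehicle changed sign to 0.51.

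All features were sensitive too. In WAT, AP20187 against vehicle gave 425 features higher and 120 lower, 0 and 2 with quantile scaling, 2 and 6 with normexp added, 7 and 220 with the percentile over detected probes, 4999 and 513 without a filter, 1106 and 125 with a stricter one, 1066 and 319 with slide as a random block, 1868 and 385 without WAT AP20187 1, and 0 and 0 with the authors' table, the replicate block or only the arrays compared. The percentile over detected probes moved the median of all features from 0.15 to -0.16 there, and from 0.11 to -0.13 between BAT and WAT, where it gave 2683 higher and 3390 lower.

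Differences of members that had not passed the test changed sign as follows. In WAT with AP20187 against vehicle, Cd22 became 0.029 with quantile scaling, 0.044 with normexp added and 0.0198 with slide as a random block. Cd3e became -0.083, Cd4 -0.061 and Ccr7 -0.27 with the percentile over detected probes. Ccr7 became -0.040 in the authors' table, -0.065 with slide as a random block and -0.20 with the conflicting array in WAT vehicle, and without WAT AP20187 1 and 2 Cd3e became -0.059 and Ccr7 -0.14. In WAT with AP20187 against wild type, Cd3e, Cd4 and Ms4a1 became -0.055, -0.020 and 0.091 with quantile scaling, and Cd3e and Cd4 -0.12 and -0.037 with normexp added. The percentile over detected probes gave -0.32 for Cd3e, -0.18 for Cd4 and -0.11 for Cd22. Slide as a fixed block gave -0.0095 for Cd3e, -0.19 for Cd4, 0.47 for Ccr7, -0.14 for Cd22 and 0.52 for Ms4a1. Cd3e became -0.013 in the authors' table and -0.22 without WAT AP20187 1 and 2. In WAT with vehicle against wild type, Cd79b became -0.045 with the percentile over detected probes, Ccr7 0.065 with slide as a fixed block and Cd4 0.00034 with slide as a random block. In BAT with AP20187 against vehicle, Cd79a became -0.47 and Ms4a1 0.042 in the authors' table, and Cd4 and Cd22 became 0.069 and 0.16 with the conflicting array in BAT vehicle. Between the tissues Cd79a became 0.46 in the authors' table. The difference of the responses became 0.035 for Cd22 with the percentile over detected probes, 0.57 for Ms4a1 in the authors' table, -0.57 for Cd2 and 0.19 for Cd22 with the conflicting array in BAT vehicle, 0.78 for Ms4a1 without WAT AP20187 1 and 2, and -0.29 for Cd79b both without these arrays and without spots in dim surroundings.

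With single arrays left out, these differences spanned 0. In WAT with AP20187 against vehicle the ranges were -0.35 to 0.40 for Ccr7, -0.23 to 0.17 for Cd22 and -1.01 to 0.14 for Ms4a1. Against wild type they were -0.65 to 0.030 for Ccr7, -0.87 to 0.17 for Cd2, -0.024 to 0.20 for Cd3e and -0.70 to 0.52 for Ms4a1. With vehicle against wild type they were -0.68 to 0.065 for Ccr7, -0.24 to 0.15 for Cd4, -0.18 to 0.41 for Cd79b and -0.11 to 0.98 for Ms4a1. In BAT they were -1.85 to 0.024 for Ccr7, -1.96 to 0.43 for Cd2, -0.47 to 0.96 for Cd79a, -1.97 to 0.61 for Cd79b and -1.85 to 0.043 for Ms4a1. Between the tissues they were -0.23 to 1.64 for Ccr7, -0.98 to 0.45 for Cd79a and -2.16 to 0.43 for Cd79b. For the difference of responses they were -0.82 to 1.56 for Cd2 and -1.38 to 0.51 for Ms4a1.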

Other observations

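On the array with conflicting labels the members read 1.03 for Cd3e, 2.09 for Cd4, -1.78 for Ccr7, -1.09 for Cd22, -0.54 for Cd79b, -2.68 for Ms4a1 and -5.17 for Cd79a (not above background). Its list means were -2.31 (T cell), -1.85 (B cell), 1.32 (pan-leukocyte) and 2.44 (macrophage).

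Of 9 granulocyte and mast cell markers, S100a9, a calcium-binding protein of neutrophils, was 8.82-fold higher in WAT with AP20187 than in wild-type WAT (3.14, SE 0.68, limma's adjusted p = 0.0327). No feature passed in that comparison with slide as a fixed block, with the replicate block, with only the arrays compared or without any one wild-type array, so this call was lost there. WAT with vehicle differed from wild type by 2.91 (SE 0.76) for the same gene and did not pass (adjusted p = 0.662). Of 3 tested lymphatic endothelial markers, Lyve1 and Pdpn were 9.69-fold and 6.54-fold lower in BAT than in WAT with vehicle (limma's adjusted p = 0.00353 and 0.00723), and Prox1 could not be tested.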
